A study of Mus musculus with 6 samples.

Results

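Zfhx4, Podn, Arl4d, Zfp703 and Exoc3l are 5 of the 23353 genes listed in an RNA-seq table of day 4 embryoid bodies (EBs, clumps of embryonic stem cells that differentiate while floating). They were chosen by name because they differed strongly between wildtype and EVX1-Δfs EBs and lie outside the pathways usually studied in axial patterning. That contrast chose them, so their values in it are a description and carry no test. The study asked what the loss of the homeodomain protein EVX1 does to gene expression during gastrulation-like differentiation. The wildtype group was the parental W9.5 line of mouse embryonic stem cells (mESCs), and the EVX1-Δfs group was clone 14, edited from W9.5 with CRISPR-Cas9 so that both alleles of Evx1 carry small frameshift deletions in the homeodomain part of exon 2. Both groups were grown for 4 days in suspension in serum-containing medium that lacked LIF, the factor that holds mESCs undifferentiated. Each group had 3 libraries. By the study's account, differentiations that were compared were started together, and each replicate was started on another day. All 3 EVX1-Δfs libraries come from 1 clone, so within these libraries a difference from wildtype cannot be told apart from a difference particular to that clone. The paper reports no significant qPCR differences between this clone and another EVX1-Δfs clone for patterning markers. By mRNA-seq, it reports only Evx1, its antisense transcript and Grb10 as different between EVX1-Δfs and a line with a larger deletion at the locus. Zfhx4, Podn, Arl4d, Zfp703 and Exoc3l are not among these. Neither comparison was tested here.

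The 5 genes encode unrelated kinds of protein. Zfhx4 encodes a very large transcription factor with many zinc fingers and several homeodomains, and Zfp703 encodes a zinc finger protein of the NET family, which represses transcription together with Groucho (TLE) corepressors and histone deacetylases. Podn encodes podocan, a secreted small leucine-rich repeat protein of the extracellular matrix. Arl4d encodes a small GTPase of the ARF-like group that acts at the plasma membrane and recruits cytohesins, exchange factors of ARF GTPases. Exoc3l encodes a protein related in sequence to Exoc3 (Sec6), a subunit of the exocyst, the complex that tethers secretory vesicles to the plasma membrane. In day 4 EBs, cells pass through states that resemble the primitive streak, the site where mesoderm and endoderm form in the embryo.

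The libraries held 7597879 to 9914471 reads assigned to genes and detected 15998 to 16479 genes. The count of Evx1 itself was 2358, 2176 and 2400 in the wildtype libraries and 2354, 2516 and 2012 in the EVX1-Δfs libraries, a log2 difference of -0.02 (limma adjusted p = 0.950). A count over the whole gene does not read small deletions, so it does not check the edit. The antisense transcript of the locus, listed as 5730457N03Rik, differed by 0.00 on the log2 scale (limma adjusted p = 0.999).

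Sequences are shown for the edit that separates the groups and for the promoters of a gene that was higher and a gene that was lower. The guide RNA target lies in exon 2 of Evx1 at chr6:52265847-52265869, plus strand, in NCBIM37, the assembly of mm9. It is printed with the PAM, the bases that Cas9 requires, in capitals.
Evx1 guide site: ccagatgcgccgataccgcaCGG
The promoter windows are the 250 bases before a RefSeq transcription start in GRCm38.p6. Of the 5 genes, 2 had an entry in the promoter table, Podn with 2 starts, of which the one farther upstream is shown. The missing entries are those of Zfhx4, Zfp703 and Exoc3l. The Podn window is chr4:108031955-108032204, minus strand. The Arl4d window is chr11:101665291-101665540, plus strand. Capitals mark matches to the motifs searched.
Podn promoter: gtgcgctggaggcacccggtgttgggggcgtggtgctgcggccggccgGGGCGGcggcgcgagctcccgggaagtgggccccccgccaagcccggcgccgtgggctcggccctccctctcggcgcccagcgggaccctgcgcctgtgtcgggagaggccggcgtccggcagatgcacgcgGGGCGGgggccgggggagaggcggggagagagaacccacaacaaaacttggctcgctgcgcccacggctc
Arl4d promoter: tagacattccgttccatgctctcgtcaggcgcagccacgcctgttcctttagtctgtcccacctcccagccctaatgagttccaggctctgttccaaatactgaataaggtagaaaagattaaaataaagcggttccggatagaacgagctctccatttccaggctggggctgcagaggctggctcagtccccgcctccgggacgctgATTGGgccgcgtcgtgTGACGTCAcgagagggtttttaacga

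The motifs searched on both strands were the homeodomain core TAATTA, the CCAAT box, the TATA box TATAAA, the GC box GGGCGG, the E-box CACGTG, the cyclic AMP response element TGACGTCA and the TCF motif CTTTGA. The Podn window held the GC box at 202 and 70 bases before the start, a motif found in 32.7% of the 32851 promoter windows. Its GC content was 78%, against a median of 52.4% over those windows. The Arl4d window, with a GC content of 54.4%, held CCAAT on the minus strand, printed as ATTGG, at 42 bases before the start, a motif found in 33.8% of windows. It also held the cyclic AMP response element at 26 bases before the start, found in 1.55% of windows. The homeodomain core was in 4.84% of all windows and in neither of these. The matches did not overlap one another. A match describes the letters of the window and is not evidence that a factor binds there.

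Zfhx4 and Podn were higher in EVX1-Δfs EBs, and Arl4d, Zfp703 and Exoc3l were lower. In each of the 5 genes the 3 wildtype and 3 EVX1-Δfs libraries did not overlap. The groups did not overlap in 26.9% of the 13136 genes tested, 12.2% with EVX1-Δfs higher and 14.7% with EVX1-Δfs lower. Because the genes were chosen on this contrast, nothing is read from that comparison. Values below are normalized counts, that is, reads per gene divided by a size factor for each library. Log2 differences are EVX1-Δfs over wildtype on the log2(normalized count + 1) scale, with the standard error (SE) from the limma fit of all genes tested.

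**Figure D1:**
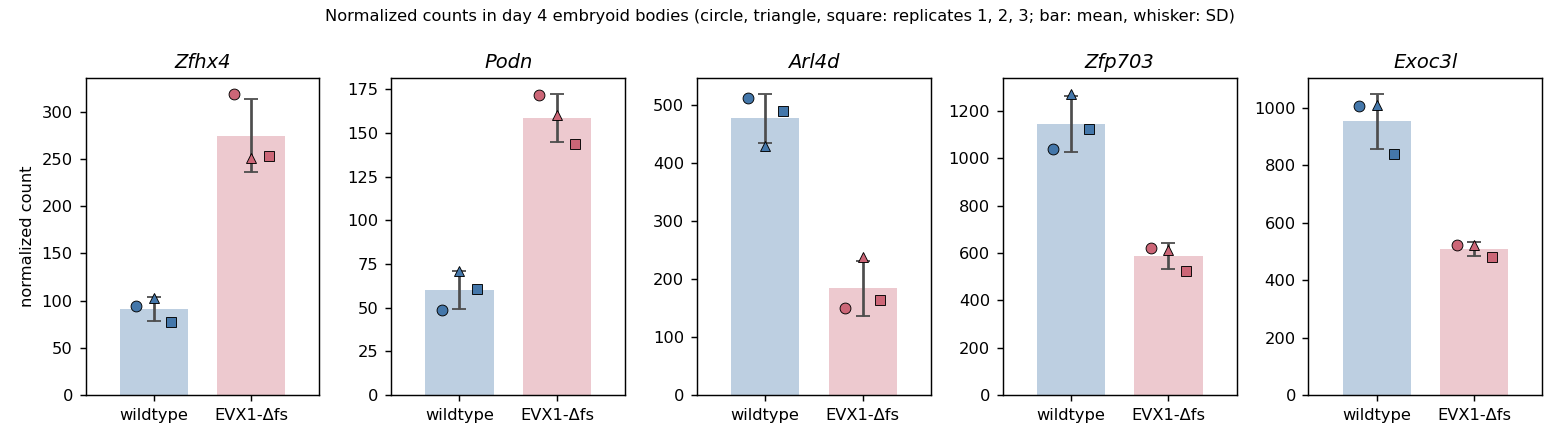
Normalized counts (y axis, linear from 0) of the 5 genes in each wildtype and EVX1-Δfs library; points are libraries, bars are means and whiskers are SDs of 3 libraries. In every panel the points of the 2 groups are separate, from Zfhx4, with means of 91.0 and 275, to Exoc3l, with means of 953 and 509.

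Zfhx4 had normalized counts of 93.8, 103 and 76.7 in the wildtype libraries and 319, 251 and 253 in the EVX1-Δfs libraries. EVX1-Δfs replicate 1 was the highest library, and even the lowest EVX1-Δfs library stood 2.45-fold above the highest wildtype library. The means were 91.0 ± 13.2 for wildtype against 275 ± 38.6 for EVX1-Δfs (SD, n = 3), a 3.02-fold difference. The log2 difference was 1.58 (SE 0.17), which ranked 12 from the top of the 13136 genes tested. Among the 10630 genes whose mean over the libraries was at least 50, it ranked 3 from the top. Replicate by replicate, EVX1-Δfs was 3.41-fold, 2.45-fold and 3.30-fold above the wildtype library of the same number. These values rest on 67 to 116 reads in wildtype and 223 to 342 reads in EVX1-Δfs libraries. The coefficient of variation (CV) between libraries was 14.5% in wildtype and 14.0% in EVX1-Δfs EBs, where counting error alone would give 10.6% and 6.10%.

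Zfhx4 lies on the plus strand of chr3:5218554-5415855 in NCBIM37, with 2 annotated transcripts and 13874 bases of exon in 11 blocks. The first part of its span overlaps the antisense lincRNA gene 2700069I18Rik by 2270 bases, with 0 exon bases in common. That lincRNA had normalized counts of 0 in the wildtype libraries and 0 to 1.91 in the EVX1-Δfs libraries. The other 4 genes overlap no annotated gene.

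Podn, the podocan gene, had normalized counts of 48.8, 70.8 and 60.7 in the wildtype libraries and 172, 160 and 144 in the EVX1-Δfs libraries. The lowest EVX1-Δfs library was 2.03-fold above the highest wildtype library. The means were 60.1 ± 11.0 and 159 ± 14.0 (SD, n = 3), a 2.64-fold difference with a log2 value of 1.40 (SE 0.19). It ranked 24 from the top of all genes tested and 4 among those with a mean of at least 50. The same-numbered libraries differed by 3.52-fold, 2.26-fold and 2.37-fold, and wildtype replicate 1, the lowest library of all 6, gave the first of these. Podn had the fewest reads of the 5 genes, 51 to 80 in wildtype and 142 to 184 in EVX1-Δfs libraries. The CV was 18.3% in wildtype and 8.84% in EVX1-Δfs EBs, against 13.0% and 7.98% from counting error alone. It lies on the minus strand of chr4:107687396-107704942 in NCBIM37, with 8 annotated transcripts and 14 exon blocks that sum to 4212 bases.

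Arl4d, the ARF-like GTPase gene, had normalized counts of 512, 429 and 489 in the wildtype libraries and 149, 238 and 164 in the EVX1-Δfs libraries. EVX1-Δfs replicate 2 stood above the other EVX1-Δfs libraries, and the lowest wildtype library was still 1.80-fold above it. The means were 477 ± 42.7 and 184 ± 47.5 (SD, n = 3), so the level in EVX1-Δfs EBs was 2.59-fold lower. The log2 difference was -1.40 (SE 0.16), which ranked 16 from the bottom of all genes tested and 5 among those with a mean of at least 50. Wildtype exceeded EVX1-Δfs by 3.43-fold, 1.80-fold and 2.98-fold in the same-numbered libraries. The CV between the EVX1-Δfs libraries was 25.9%, the largest group CV among the 5 genes, where counting error alone would give 7.48%. In wildtype these values were 8.95% and 4.57%. Without EVX1-Δfs replicate 2 the log2 difference was the lowest of those that leave 1 library out, at -1.60. Arl4d is a compact gene on the plus strand of chr11:101526855-101529146 in NCBIM37, with 1 annotated transcript and 1382 bases of exon in 2 blocks.

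Zfp703, the NET family zinc finger gene, had normalized counts of 1038, 1274 and 1123 in the wildtype libraries and 621, 615 and 522 in the EVX1-Δfs libraries. The lowest wildtype library was 1.67-fold above the highest EVX1-Δfs library. The means were 1145 ± 120 and 586 ± 55.3 (SD, n = 3), a level 1.95-fold lower in EVX1-Δfs EBs, with a log2 difference of -0.96 (SE 0.12). It ranked 74 from the bottom of all genes tested and 27 among those with a mean of at least 50. The same-numbered libraries differed by 1.67-fold, 2.07-fold and 2.15-fold. With 545 to 1440 reads per library, the CV was 10.4% in wildtype and 9.43% in EVX1-Δfs EBs, against 2.96% and 4.15% from counting error alone. Zfp703 lies on the plus strand of chr8:28087808-28091933 in NCBIM37, with 2 annotated transcripts and 3304 bases of exon in 3 blocks.

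Exoc3l, the relative of the exocyst subunit Exoc3, had normalized counts of 1007, 1011 and 840 in the wildtype libraries and 524, 521 and 481 in the EVX1-Δfs libraries. Wildtype replicate 3 was the lowest of its group, and replicate 3 was also the lowest of the EVX1-Δfs group. The means were 953 ± 97.3 and 509 ± 23.8 (SD, n = 3), a level 1.87-fold lower in EVX1-Δfs EBs, with a log2 difference of -0.90 (SE 0.12). The nearest libraries of the groups were 1.60-fold apart. It ranked 95 from the bottom of all genes tested and 40 among those with a mean of at least 50. The same-numbered libraries differed by 1.92-fold, 1.94-fold and 1.75-fold, the narrowest range of the 5 genes. The CV was 10.2% in wildtype and 4.68% in EVX1-Δfs EBs, where counting error alone would give 3.26% and 4.44%. Exoc3l lies on the minus strand of chr8:107813824-107819998 in NCBIM37, with 2 annotated transcripts and 2497 bases of exon in 14 blocks. Zfp703 lies on the same chromosome.

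Per kilobase (kb) of annotated exon, the genes formed a high and a low set. In wildtype EBs the levels per kb were 382 ± 39.0 for Exoc3l, 347 ± 36.2 for Zfp703 and 345 ± 30.9 for Arl4d (SD, n = 3). The ranges of these 3 genes overlapped, from 311 to 405, so their order was not separated by the spread. Podn, at 14.3 ± 2.62, and Zfhx4, at 6.56 ± 0.950, were far below and did not overlap each other. Among all genes tested, the wildtype levels per kb stood at percentiles 88.1, 86.8 and 86.7 for Exoc3l, Zfp703 and Arl4d, and at 19.5 and 9.68 for Podn and Zfhx4.

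In EVX1-Δfs EBs the levels per kb were 204 ± 9.54 for Exoc3l, 177 ± 16.7 for Zfp703, 133 ± 34.4 for Arl4d, 37.7 ± 3.33 for Podn and 19.8 ± 2.78 for Zfhx4 (SD, n = 3). Exoc3l no longer overlapped Zfp703, with a lowest library of 193 against a highest of 188, while Zfp703 and Arl4d still overlapped between 158 and 172. Arl4d moved farthest in rank among the lower genes, to percentile 68.8, with Zfp703 at 75.7 and Exoc3l at 78.9. Podn stood at percentile 36.6 and Zfhx4 at 23.2. The difference between the groups thus ran within a high set and a low set of levels, and did not bring any gene of one set into the range of the other.

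**Figure D2:**
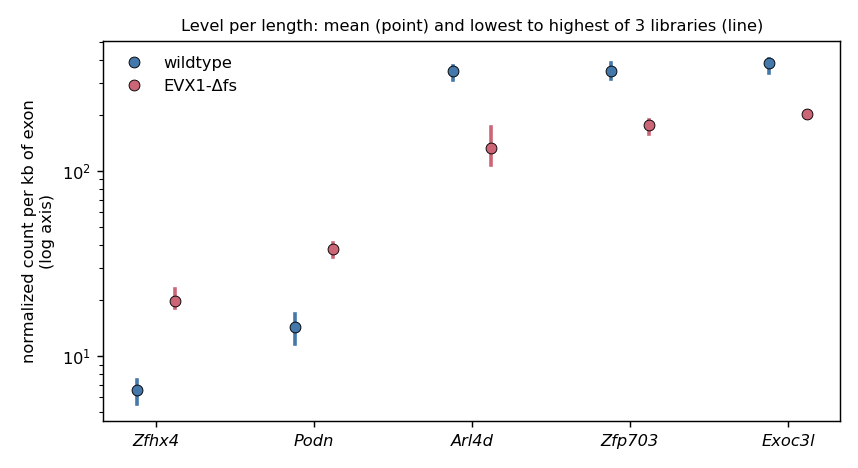
Normalized count per kb of annotated exon (y axis, log scale) for the 5 genes; points are means and lines run from the lowest to the highest of 3 libraries, wildtype beside EVX1-Δfs. Exoc3l, Zfp703 and Arl4d stay above 108 per kb in every library, and Podn and Zfhx4 stay at or below 40.8.

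The nearest relatives of the 5 genes were listed from general knowledge and counted without the chosen gene itself. Over all genes tested, 5.02% passed an adjusted p of 0.05 in limma, 2.08% higher and 2.95% lower in EVX1-Δfs EBs, and the median log2 difference was 0.00. Over the same genes edgeR called 5.30%, voom 5.28% and limma with the replicate number as a block 1.69%. DESeq2 called 6.89% of the 11623 genes to which it gave an adjusted p. Limma called 2.15% of the 12942 genes with a GC value after trends with GC content and length were removed. The number called by limma over all genes fell from 660 to 222 with the block, and to 219 to 645 with 1 library left out. A call lost in those fits is therefore not read as particular to that gene. The 3 wildtype and 3 EVX1-Δfs libraries were separate differentiations, so these p-values measure the spread between differentiations of 1 line and 1 clone. Counts at an unadjusted limma p below 0.05 are given below for some lists without the share over all genes, so nothing is read from them.

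Of the 13 other zinc finger homeobox genes, 11 were tested, and limma called 0 of them, as did DESeq2, edgeR and voom, with 2 at an unadjusted p below 0.05. Their median log2 difference was 0.02, and they ran from -0.68 for Zeb1, a repressor known for its part in epithelial-mesenchymal transition, to 0.16 for Zhx1. The genes closest to Zfhx4 are Zfhx2 and Zfhx3. Zfhx2 had normalized counts of 172, 215 and 212 in wildtype and 209, 222 and 190 in EVX1-Δfs libraries, with a log2 difference of 0.06 (SE 0.15, limma adjusted p = 0.860). Zfhx3 had 524, 472 and 410 against 598, 474 and 396, with a log2 difference of 0.05 (SE 0.14, limma adjusted p = 0.872). In both genes the groups overlapped. The sign turned without wildtype replicate 1 for Zfhx2, and without wildtype replicate 3 or EVX1-Δfs replicate 1 for Zfhx3.

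Among the 16 other small leucine-rich proteoglycan genes, the family of Podn, 3 had enough counts to be tested and 3 of the rest were at 0 in every library. Of the 3 tested, 2 had an unadjusted limma p below 0.05. Bgn, which encodes the matrix proteoglycan biglycan, was called lower, the direction opposite to that of Podn. Its normalized counts were 90.9, 96.5 and 45.8 in wildtype and 22.4, 29.3 and 37.2 in EVX1-Δfs libraries, a log2 difference of -1.32 (SE 0.28, limma adjusted p = 0.0106). The groups of Bgn did not overlap. With the replicate number as a block its limma adjusted p was 0.0550, and without EVX1-Δfs replicate 1 it was 0.0532. Tsku, the tsukushi gene, had a log2 difference of -0.33 (limma adjusted p = 0.130) and Optc, the opticin gene, one of 0.45 (limma adjusted p = 0.499). Podnl1, the closest relative of Podn, had mean normalized counts of 8.71 in wildtype and 3.14 in EVX1-Δfs EBs and was too low to test.

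Of the 28 other ARF and ARL GTPase genes, 24 were tested, and limma called 0 of them, as did DESeq2, edgeR and voom, with 5 at an unadjusted p below 0.05. They ran from -0.64 for Arl10 to 0.40 for Arl5c on the log2 scale, with a median of 0.02. The paralogs Arl4a and Arl4c had log2 differences of 0.20 (SE 0.20, limma adjusted p = 0.591) and -0.26 (SE 0.12, limma adjusted p = 0.211). Arl4c was expressed at a mean of 1258 ± 179 for wildtype against 1048 ± 115 for EVX1-Δfs (SD, n = 3). Of the 4 cytohesin genes, whose products ARL4 proteins recruit, 3 were tested. Limma called 0 of these, with 1 at an unadjusted p below 0.05. DESeq2 called 1, and edgeR and voom called 0. Cyth2, the gene DESeq2 called, had normalized counts of 1175, 1103 and 1305 in wildtype and 905, 850 and 998 in EVX1-Δfs libraries, a log2 difference of -0.38 (SE 0.11, limma adjusted p = 0.0546).

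The list for Zfp703 held 9 other genes of the NET family and its Groucho and histone deacetylase partners, all 9 tested. Tle3, a Groucho corepressor gene, was the 1 called and the 1 at an unadjusted p below 0.05, and it was lower. Its normalized counts were 2140, 2349 and 2010 in wildtype and 1691, 1579 and 1582 in EVX1-Δfs libraries, a log2 difference of -0.42 (SE 0.11, limma adjusted p = 0.0294). The call was lost with the replicate block (limma adjusted p = 0.0638) and when any library but wildtype replicate 3 was left out. Zfp503, the other NET gene of the mouse, had mean normalized counts of 31.2 ± 8.32 and 21.2 ± 4.43 (SD, n = 3), a log2 difference of -0.53 (SE 0.31, limma adjusted p = 0.313).

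Zfp703 also shares its symbol class with 359 other Zfp genes, 320 of them tested. Limma called 13 of these higher and 2 lower, Zfp628 (log2 -0.67) and Zfp622 (log2 -0.50), or 4.69% in all. Of the 320 tested, 80 had an unadjusted limma p below 0.05, a count from which nothing is read without the share over all genes. Their median log2 difference was 0.14, with 216 above 0 and 104 below. Zfp703 had the lowest log2 difference of the Zfp genes tested, but it was chosen on this contrast, so nothing is read from that rank. The count of called Zfp genes fell from 15 to 3 with the replicate block and to 1 after trends with GC content and length were removed.

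Of the 12 exocyst and Sec6-like genes other than Exoc3l, 11 were tested and limma called 1. At an unadjusted limma p below 0.05 there were 4, but without the share over all genes nothing is read from that count. Exoc5, a core exocyst subunit gene, had normalized counts of 102, 109 and 103 in wildtype and 127, 171 and 183 in EVX1-Δfs libraries. The groups of Exoc5 did not overlap, and it was higher in EVX1-Δfs EBs, opposite to Exoc3l, by 0.59 on the log2 scale (SE 0.17, limma adjusted p = 0.0495). That call was lost with the replicate block (limma adjusted p = 0.0817) and when any library but EVX1-Δfs replicate 1 was left out. After trends with GC content and length were removed its log2 difference was 0.15 (limma adjusted p = 0.712). Exoc3, the subunit that Exoc3l resembles, had a log2 difference of -0.03 (SE 0.15, limma adjusted p = 0.934), Exoc3l4 one of 0.09 (SE 0.29, limma adjusted p = 0.886) and Tnfaip2, another Sec6-like gene, one of -0.54 (SE 0.24, limma adjusted p = 0.182). Exoc3l2 was not analysed here.

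**Figure D3:**
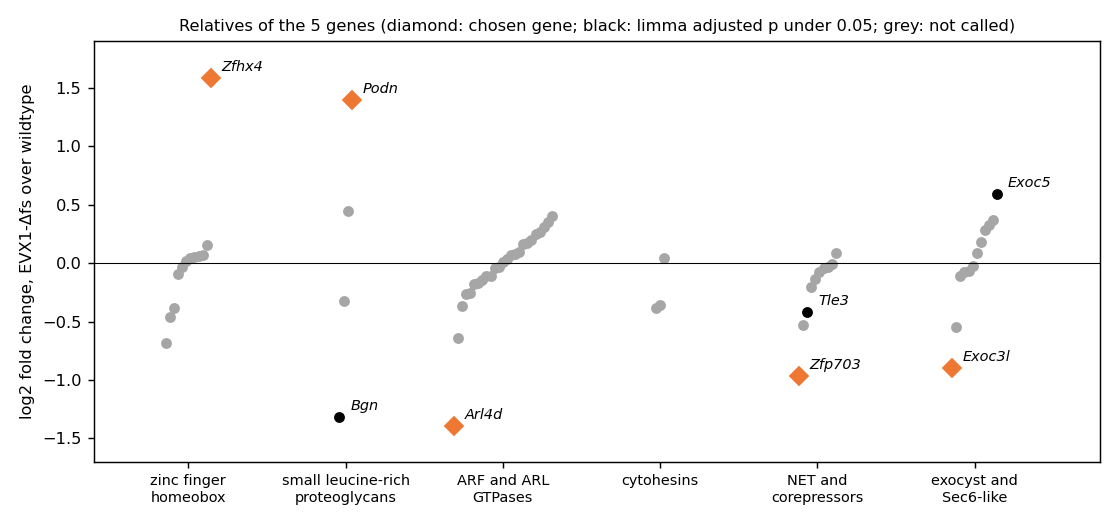
Log2 difference, EVX1-Δfs over wildtype (y axis), of the tested relatives in 6 lists, sorted within each list; diamonds are the 5 chosen genes, black points are relatives with a limma adjusted p under 0.05 and grey points are the others. Each chosen gene lies at an end of its list, but the genes were chosen on this contrast, so nothing is read from that position. Bgn, Tle3 and Exoc5 are the called relatives.

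The genes beside the 5 were also read, since the choice did not use them. The 3 nearest tested genes on each side gave 27 neighbours, with 0 tested on the side of Zfhx4 toward lower coordinates. Limma called 1 of the 27, or 3.70%, against 5.02% over all genes tested. At an unadjusted limma p below 0.05 there were 11, but without the share over all genes nothing is read from that count. The log2 differences were above 0 in 12 and below 0 in 15. The called neighbour was Gpr124, an adhesion receptor gene 104 kb from Zfp703, which was lower like Zfp703. Its normalized counts were 448, 730 and 276 in wildtype and 188, 245 and 273 in EVX1-Δfs libraries, a log2 difference of -0.95 (SE 0.22, limma adjusted p = 0.0173). The wildtype libraries of Gpr124 spread widely, and the groups were nearly touching at 276 and 273. The call was lost with the replicate block (limma adjusted p = 0.0579) and when wildtype replicate 2 was left out (limma adjusted p = 0.0666), or replicate 1 (0.0890) or 2 (0.0570) of EVX1-Δfs. DESeq2 called 0 of the neighbours.

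The closest tested gene to any of the 5 was 4931428F04Rik, 0.395 kb from Exoc3l. It had normalized counts of 423, 397 and 316 in wildtype and 346, 407 and 349 in EVX1-Δfs libraries, overlapping groups with a log2 difference of -0.04 (SE 0.14, limma adjusted p = 0.901). On the other side of Exoc3l, at 1.56 kb, lies E2f4, a cell cycle transcription factor gene. E2f4 had 3509, 3530 and 3937 in wildtype and 3314, 2953 and 2783 in EVX1-Δfs libraries. Those groups did not overlap, with a log2 difference of -0.28 (SE 0.11) that did not pass the test (limma adjusted p = 0.138).

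The other immediate neighbours did not pass the test either. Pex2, a peroxisome gene 144 kb from Zfhx4, had a log2 difference of 0.31 (limma adjusted p = 0.193). Beside Podn, Scp2 at 11.5 kb and Cpt2 at 91.2 kb, both genes of lipid metabolism, had log2 differences of -0.07 and 0.03. Beside Arl4d, Rdm1 at 29.4 kb and Dhx8 at 65.1 kb had log2 differences of -0.20 and -0.30. Beside Zfp703, Erlin2 at 42.4 kb and Thap1 at 814 kb had log2 differences of 0.05 and -0.22.

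**Figure D4:**
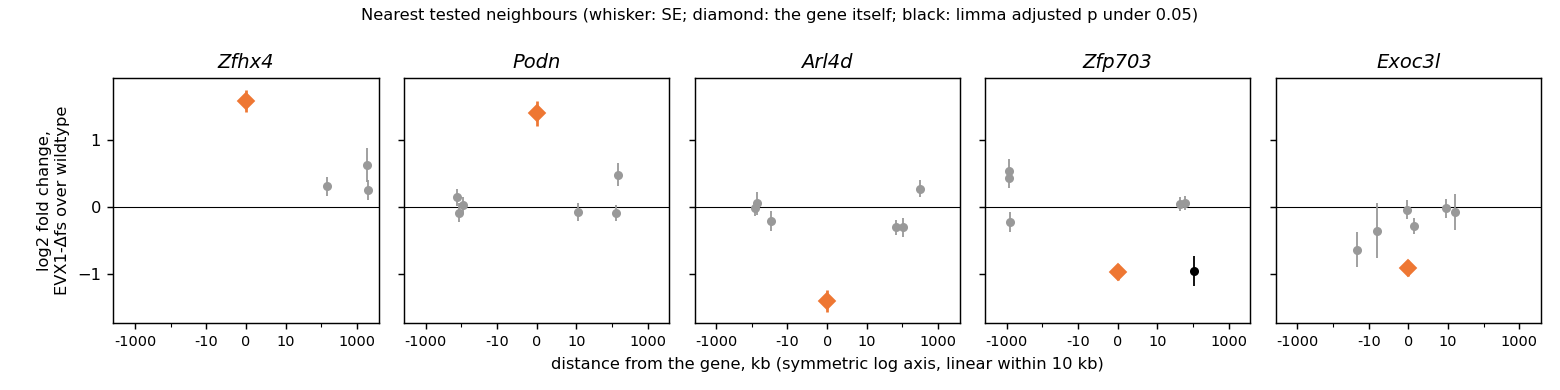
Log2 difference, EVX1-Δfs over wildtype (y axis), of each of the 5 genes (diamond, at 0 kb) and its nearest tested neighbours against distance in kb (x axis, symmetric log scale, linear within 10 kb); whiskers are SEs. Of the 27 neighbours 1, Gpr124 at 104 kb from Zfp703, is drawn black as called by limma.

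For each of the 5 genes, the 3 genes with the most similar values over the 6 libraries were found by the root mean square (RMS) distance between mean-centred log2 values, among 10625 candidates whose mean was at least 50. The distances describe likeness over 6 libraries of 2 groups, so a gene that separates the groups by a similar amount is close by construction. For Zfhx4 these were Grb10, an imprinted adaptor of growth factor receptors, Tex15, a gene known from meiosis, and Ttc14, at RMS distances of 0.183, 0.217 and 0.305 against a median of 0.834 over the candidates. Grb10 had normalized counts of 279, 252 and 212 in wildtype and 883, 927 and 791 in EVX1-Δfs libraries. The paper also reports Grb10 as different between EVX1-Δfs and the line with the larger deletion. For Podn they were Has3, a hyaluronan synthase gene, Chrnb4, a nicotinic receptor subunit gene, and Sema6d, a semaphorin gene, at 0.214, 0.241 and 0.252 against a median of 0.745. Has3 had 65.1, 80.5 and 82.4 against 149, 171 and 154.

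Arl4d was closest to Msgn1, a transcription factor gene of presomitic mesoderm, Ccno, a cyclin-like gene, and Etv2, a transcription factor gene of the blood and endothelial lineage, at 0.176, 0.228 and 0.232 against a median of 0.736. Msgn1 had normalized counts of 201, 224 and 204 in wildtype and 55.1, 112 and 80.0 in EVX1-Δfs libraries. EVX1-Δfs replicate 2 was the highest of its group, as in Arl4d, a likeness that the choice by distance favours. Zfp703 was closest to Frmd4a, a scaffold gene, Runx3, a Runt transcription factor gene, and Hey1, a repressor gene downstream of Notch, at 0.0611, 0.0948 and 0.105 against a median of 0.509. Frmd4a had 579, 678 and 546 against 331, 333 and 281. Exoc3l was closest to Trim54, Plxna4, a semaphorin receptor gene, and again Frmd4a, at 0.0744, 0.0791 and 0.0804 against a median of 0.477. Trim54, known from muscle, had 169, 169 and 153 against 82.2, 94.7 and 82.9. Frmd4a thus appeared for both Zfp703 and Exoc3l, and its log2 difference was -0.93 against -0.96 and -0.90 for these genes.

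Markers of the cell states that day 4 EBs can hold differed between the same libraries. Of 9 primitive streak and nascent mesoderm genes limma called 7 lower, and their summed normalized counts ranged from 15179 to 18174 in wildtype and from 10309 to 13047 in EVX1-Δfs libraries. Of 8 tested genes of lateral plate and haematoendothelial mesoderm 6 were lower, with sums of 6559 to 9592 and 3378 to 4324. Arl4d, Zfp703 and Exoc3l were also lower in EVX1-Δfs libraries, a direction fixed by their choice on this contrast. Of 9 endoderm genes 5 were tested and 3 were higher, namely Cer1, Foxa2 and Sox17, with sums of 745 to 946 and 924 to 1327 over the list. The other 2 tested, Gata4 and Gata6, had log2 differences of -0.38 each and did not pass the test (limma adjusted p = 0.112 and 0.146). Without Cer1, which had 24.9, 26.5 and 50.4 in wildtype and 431, 406 and 294 in EVX1-Δfs libraries, the sums were 720 to 895 and 630 to 921, and the groups overlapped. Zfhx4 and Podn were also higher in EVX1-Δfs libraries, again fixed by the choice. Nothing is read from a direction that any of the 5 genes shares with a marker. The defining visceral endoderm markers Afp, Ttr and Apoa1 were at or near 0, with group means of at most 1.58, and Afp was at 0 in all 3 wildtype libraries. Hnf4a, the remaining gene of the list and also too low to test, was higher in EVX1-Δfs libraries. It had 2.87, 1.77 and 2.29 in wildtype and 7.47, 7.89 and 8.58 in EVX1-Δfs libraries.

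Of 9 pluripotency and epiblast genes 1, Fgf5, was called higher, with sums of 11525 to 17008 and 13357 to 16011. Of 9 neurectoderm genes 4 were tested and limma called 0, as did DESeq2, edgeR and voom, with 2 at an unadjusted p below 0.05, and their sums were 2600 to 3520 and 3127 to 3304. With the replicate block the counts called were 5 streak, 6 lateral plate, 1 endoderm and 0 pluripotency genes. The pluripotency count varied between fits. Of its 9 genes 7 had log2 differences above 0, and DESeq2 and edgeR called 5 each, while voom and limma with trends removed called 2 each. The part of these cell states in the values of Zfhx4, Podn, Arl4d, Zfp703 and Exoc3l was not tested. In bulk EBs, fewer cells of a type and less RNA per cell cannot be told apart.

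The log2 differences of all genes also followed base composition. Over the 12942 tested genes with a value, or 98.5%, Spearman's rho of the log2 difference with the GC content of the exons was -0.46, across genes, which are not independent and share the 6 libraries. Zfhx4 has a GC content of 45.4%, at percentile 24.4 of the genes tested, and the 4 other genes lie above the middle of the range. Arl4d at 55.7% and Podn at 56.9% stand at percentiles 78.9 and 84.8, and Zfp703 at 60.4% and Exoc3l at 60.7% at percentiles 96.2 and 96.8. Podn, which was higher in EVX1-Δfs EBs, therefore ran against the trend, and the other 4 genes ran along it.

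After per-library trends with GC content and exon length were removed, the log2 differences were 1.40 for Zfhx4, 1.52 for Podn, -1.28 for Arl4d, -0.79 for Zfp703 and -0.71 for Exoc3l. The direction held in all 5, from which nothing is read because the genes were chosen on this contrast. Podn became the largest, and Zfp703 and Exoc3l came nearer to 0 by more than 1 SD of their replicates. The part of base composition in the differences was not tested beyond this.

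**Figure D5:**
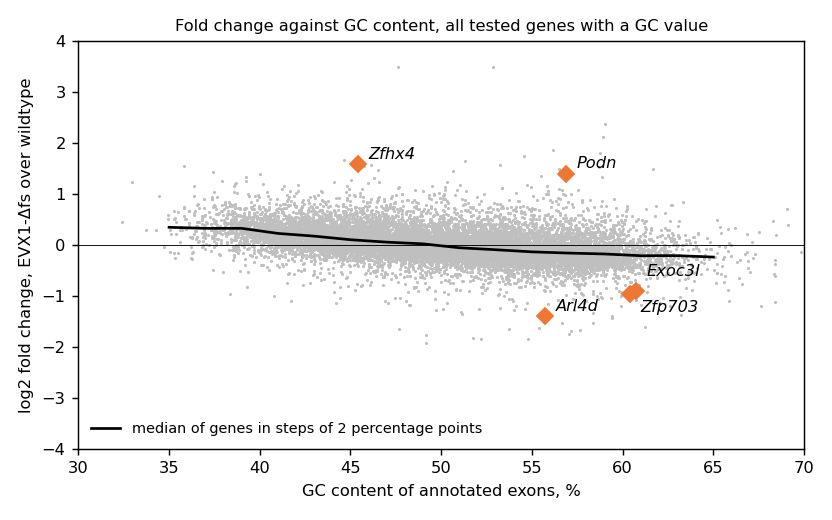
Log2 difference, EVX1-Δfs over wildtype (y axis), against the GC content of annotated exons (x axis, %) for the tested genes, with 9 points outside the axes; the black line is the median in steps of 2 percentage points and diamonds are the 5 chosen genes. The line falls from left to right, and Podn, at 56.9% GC and 1.40, lies on the side opposite to it.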

How the data were processed

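RNA was measured in 3 wildtype and 3 EVX1-Δfs libraries of day 4 EBs, grouped and numbered by their labels. By the study's account, mRNA was selected and sequenced on an Ion Proton, and the authors aligned reads to mm9 (TopHat2, then TMAP) and counted them by gene in HTSeq at its defaults. Versions and the annotation are not given in the sources used here. The values deposited are a signal of 0 or more, namely read counts per gene over a library factor. Whole reads were recovered for 100% of values within a tolerance of 0.001 (largest distance 3.71e-05), and the factors were within 0.00577% of DESeq2's size factors. Rn45s took 1.87% to 4.95% of reads.

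The study's methods name DESeq2, which needs raw counts, while the values deposited are normalized. Limma on the deposited scale was made the main fit, although DESeq2 could also be run on the recovered reads. Limma (3.58.1, R 4.3.3, with a mean-variance trend) was fitted to log2(normalized count + 1) of the 13136 genes with at least 10 in at least 3 libraries, with Benjamini-Hochberg adjustment. A log2 fold change on this scale understates the change of low genes. DESeq2 (1.42.0), edgeR (4.0.16) and voom on the recovered reads, pseudocounts of 4 and 16, other filters and scalings, trends in GC content and length (splines of 5 degrees of freedom), and each library left out were alternatives. The fitting script was tested on simulated data. Of the symbols listed, 21939 (93.9%) were placed on NCBIM37 with GENCODE vM1, 732 through an older symbol. The promoter sequences are from RefSeq.

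The 5 genes, the lists and the tests were chosen with earlier results of these data known. Genes named are the 5, Evx1 and its antisense transcript, the closest relatives, called relatives, immediate and called neighbours, and the 3 most similar genes each. List extremes, the other tested members of the short lists, Zfp628, Zfp622 and the markers were named after their values were seen.

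Per the labels and methods, libraries compared were set up together and replicates on different days, although no source ties the numbers to days. The main fit was unpaired. The number was taken to pair libraries only in the fits with a replicate block and in the ratios of same-numbered libraries. Deviations from the group mean were correlated between the wildtype and EVX1-Δfs libraries of the same number. The correlations were 0.111, 0.00933 and -0.101 for replicates 1, 2 and 3 over 13136 genes. These values do not show that the numbers pair libraries. Libraries of a group differed beyond counting error (chi-square per degree of freedom 8.08 to 18.8), so none was a duplicate. Counting-error figures cover counting error only.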

Additional observations from a re-analysis of the deposited data

How the results depend on the processing

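The 5 genes kept their direction under all 19 alternatives. They were chosen for a strong difference in these same libraries, so nothing is read from the kept direction. Their log2 differences ranged from 1.40 to 1.68 for Zfhx4, 1.21 to 1.52 for Podn, -1.60 to -1.26 for Arl4d, -1.03 to -0.79 for Zfp703 and -0.99 to -0.71 for Exoc3l. With GC and length trends removed, with or without the replicate block, Zfp703 was at -0.79 and Exoc3l at -0.71. Over all genes, limma called 660 (273 higher, 387 lower), 222 with the replicate block, 278 with trends removed and 201 with both, and DESeq2 called 284 with the block. Leaving out 1 library gave 219, without EVX1-Δfs replicate 3, to 645. Upper-quartile scaling gave 370 higher and 325 lower. The called proteoglycan gene was lost, giving 0, with a minimum of 50, with the block in limma or DESeq2, and with block and trends. The called NET or corepressor gene was lost, giving 0, with the limma block, trends removed, or both. The called exocyst gene was lost, giving 0, with all genes that have any read, voom, either block, trends removed, or block and trends. The called neighbour was lost, giving 0, in DESeq2, either block, trends removed, or both. Leaving out 1 library gave 0 to 1 for each of the 3 lists and 0 to 2 for neighbours. Cytohesins gave 1 with a pseudocount of 16 or in DESeq2. Zfp symbols gave 7 with any read, 3 and 4 with the limma and DESeq2 block, 1 with trends removed, 2 with both, and 3 to 19 leaving out 1 library. Differences close to 0 changed sign. With trends removed, with or without the block, Arl4a was at -0.031, Erlin2 at -0.040, 4931428F04Rik at 0.066 and Evx1 at 0.18. With upper-quartile scaling Exoc3 was at 0.0014 and Evx1 at 0.013, edgeR gave 0.00094 for Evx1, and DESeq2 gave -0.0019 for 5730457N03Rik. Leaving out 1 library gave -0.047 to 0.12 for Zfhx2, -0.11 to 0.19 for Zfhx3, -0.17 to 0.10 for Exoc3, -0.092 to 0.22 for Exoc3l4, -0.040 to 0.098 for Cpt2, -0.14 to 0.030 for Scp2, -0.16 to 0.048 for 4931428F04Rik, -0.086 to 0.076 for Evx1 and -0.077 to 0.062 for 5730457N03Rik. The cause of these changes was not tested. Depth limits Podn and Zfhx4 most, with as few as 51 and 67 reads in a library.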
